A study of Mus musculus with 61 samples.

Results

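The comparison set mouse CD4+ T cells that carried a retrovirus for the STAT5B variant Y665F against cells of the same background that carried one for native STAT5B. Its members are 6 of the 61 samples of the series, chosen by title: 3 libraries of wild-type (WT) cells with Y665F and 3 libraries of WT cells with STAT5B, numbered 1 to 3 in each group. The cells came from C57BL/6 mice aged 2 months. Naive CD4+ cells (live, CD44 low, CD25-) were sorted from pooled lymph nodes and spleens, activated through the T-cell receptor and CD28, transduced, grown with IL-2 for 48 h, and sorted again as live cells with the vector's GFP before total RNA sequencing. The label that gives genotype reads Stat5a/b flox/flox for all 30 libraries of transduced CD4 cells, so the WT background is known here from the titles and the study's methods. These cells kept their own Stat5a and Stat5b genes, so each vector acted beside endogenous STAT5. In the Stat5a/b-null background used for comparison, floxed Stat5a/b had been deleted by Cd4-Cre at the double-positive stage of the thymus. Cells were taken from pooled organs, and the labels do not say whether each number is a separate mouse, culture or day, so the p-values cover only the spread between these libraries.

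STAT5B is a transcription factor that cytokine receptors of the common gamma chain, the IL-2 receptor among them, activate through Janus kinases. Phosphorylated STAT5 pairs through its SH2 domains, enters the nucleus, and binds DNA at gamma-activated sites, raising genes such as Cish, Socs2 and Il2ra. In CD4+ T cells it is known for its part in survival, growth and the choice between helper and regulatory fates. The tyrosine that Y665F turns into phenylalanine lies in the SH2 domain, as does the asparagine whose change to histidine (N642H) gives an activating variant used in the series as a reference. The codon of that tyrosine in the isoform in the vectors (Stat5b-202) reads TAC and lies on the minus strand of chromosome 11 in GRCm38, at 100787291 to 100787293, in exon 16. The reference sequence of the isoform from codon 637 to codon 672, all within exon 16 (chr11:100787270-100787377, minus strand), is shown because both changed residues fall in it, with the asparagine codon and then the tyrosine codon in capitals.
Stat5b-202: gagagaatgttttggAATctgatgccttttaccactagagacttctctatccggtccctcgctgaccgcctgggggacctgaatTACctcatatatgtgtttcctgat

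The 6 libraries held 25675727 to 48821084 read pairs assigned to genes, and a further 29.6% to 32.0% of their pairs had no gene. Markers of CD4+ T cells were high throughout: Cd4 itself ranged from 720.3 to 935.5 counts scaled to sequencing depth (CPM), and the 12 markers together from 5403 to 6248 CPM with STAT5B and from 5429 to 6147 CPM with Y665F. Summed markers of other cells were low and overlapped between the groups, with at most 8.57 CPM for CD8 T cells, 2.78 CPM for NK cells, 2.18 CPM for B cells and 2.49 CPM for macrophages and dendritic cells. None of the markers of any list passed the test. In bulk RNA, fewer cells of a type and less RNA per cell cannot be told apart.

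The spread between libraries of a group was about as large as that between the groups. Over the 11302 genes that averaged 1 CPM or more, the median absolute log2 difference between STAT5B libraries was 0.17 for numbers 1 and 2, 0.26 for 1 and 3 and 0.16 for 2 and 3. Between Y665F libraries it was 0.15, 0.29 and 0.32 in the same order, so that library 3 was the farthest from the others with Y665F but not from library 2 with STAT5B. Same-numbered libraries of the groups differed by 0.16, 0.25 and 0.17. Same-numbered libraries of the groups deviated from their group means together, with correlations across genes of 0.43 for number 1, 0.30 for number 2 and 0.70 for number 3. The match by number was not exclusive, since STAT5B library 1 correlated more with Y665F library 2 (0.60) than with Y665F library 1. Genes are not independent replicates, and these correlations only describe the libraries. The fit therefore held the replicate number as a block, as the rule of the comparison asked, so that a change is read within same-numbered pairs, and drew its estimate of the spread from all 15 libraries of transduced WT cells.

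The level of Stat5b overlapped between the groups and was somewhat lower with Y665F in every pair. Stat5b reached 402.1, 501.5 and 545.8 CPM in STAT5B libraries 1 to 3, and 394.6, 358.7 and 471.3 CPM in Y665F libraries 1 to 3. The means were 483.1 ± 73.6 CPM with STAT5B and 408.2 ± 57.6 CPM with Y665F (SD, n = 3 each), against 195.8 ± 9.23 CPM with empty vector (SD, n = 3). Total Stat5b thus stood 2.47-fold above the empty vector with STAT5B and 2.09-fold above it with Y665F. The difference between the vectors, -0.24 on the log2(CPM + 1) scale, gave p = 0.2 in an exact two-sided permutation test, whose smallest possible p with 3 against 3 is 0.1. Reads from the vector and from the endogenous gene are counted together here, and the base change itself was not analysed. Stat5a, the neighbouring paralog that was not in the vectors, had 155.4 ± 15.9 CPM with STAT5B and 130.2 ± 32.4 CPM with Y665F (SD, n = 3 each; p = 0.4 by the same exact permutation test). That test ignores the pairing. In the blocked edgeR fit, Stat5b had a log2 fold change of -0.24 ± 0.10 (SE). Its quasi-likelihood test gave an unadjusted p of 0.0297 and an adjusted p of 0.424. Stat5a, also lower in every pair, had -0.27 ± 0.12 (SE), with 0.0312 and 0.432 by that test.

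In the blocked fit of all WT libraries, Y665F raised a small set of genes over native STAT5B and lowered few. A gene was called differentially expressed (DEG) when its adjusted p was under 0.05 and its log2 fold change was beyond 1 in either direction. The adjusted p is throughout that of the quasi-likelihood test of edgeR, adjusted by Benjamini-Hochberg across the whole table, unless another tool is named. Of 20509 genes tested, 44 were DEGs higher with Y665F (0.215%) and 0 were DEGs lower with it (0%), although 1104 genes were lower at an unadjusted p under 0.05 and DESeq2 with the replicate term called 1 lower DEG. By adjusted p alone, 79 genes were higher (0.385%) and 10 were lower (0.0488%). That split depended on the fit. Past the same threshold, DESeq2 with the replicate term gave 164 higher and 70 lower, the fit of the 6 libraries alone 161 and 84, replicates 1 and 2 only 358 and 326, and no filter on low counts 204 and 209. All 44 DEGs were higher in 3 of 3 same-numbered pairs, a property that the blocked call itself favours. Among all genes tested, 10.1% were higher in 3 of 3 pairs and 12.1% lower. In 27 of the 44 DEGs the 3 Y665F libraries lay wholly above the 3 STAT5B libraries, beside 5.15% of all genes whose groups did not overlap in either direction.

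These calls rest on the block. Without the replicate block, edgeR called 0 DEGs, with 0 genes past adjusted p (smallest 0.168) and 632 genes at an unadjusted p under 0.05. DESeq2 without the replicate term called 12 DEGs, all 12 higher and all among the 44. With the block, DESeq2 called 52 DEGs, 39 of them among the 44. Single libraries also moved the count. Without STAT5B library 3 there were 29 DEGs, all higher, and without Y665F library 3 there were 94, of which 60 were higher and 34 lower. The genes past adjusted p alone numbered 42 and 841 without these libraries, the latter being 433 higher and 408 lower, 48 without STAT5B library 2, 47 without Y665F library 2 and 59 without Y665F library 1.

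**Figure D1:**
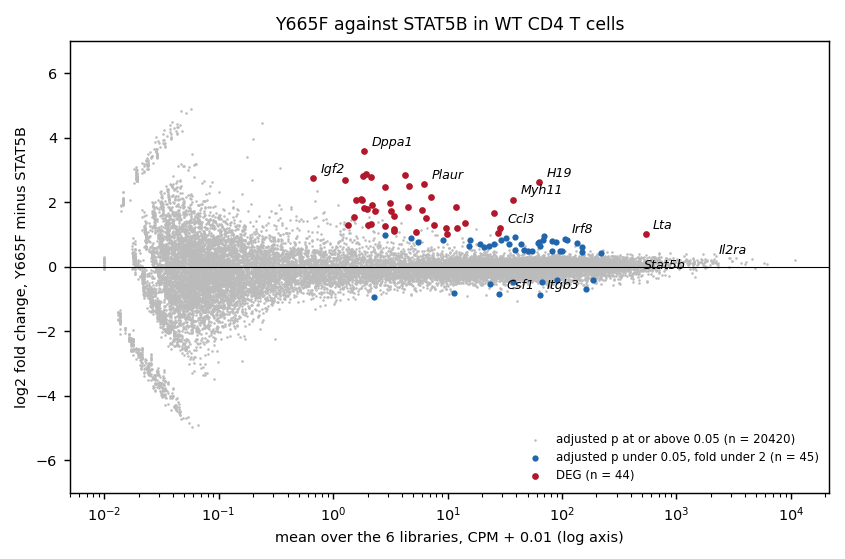
Fold change by level. The x axis is the mean of the 6 libraries in CPM + 0.01 (log axis), the y axis the log2 fold change of Y665F over STAT5B for each of 20509 genes, with the 44 DEGs in red, the other 45 genes past adjusted p in blue and the rest in grey. The 44 DEGs all lie above 0, while the 10 genes that were lower stay above -1.

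The next 15 genes had the largest folds among DEGs without overlap that averaged at least 1 CPM, predicted genes left aside. They averaged at most 1.28 CPM in cells with empty vector. Dppa1, a gene named for early embryonic cells, had 0.554, 0.181 and 0.117 CPM in STAT5B libraries 1 to 3 and 2.42, 5.07 and 2.92 CPM in Y665F libraries 1 to 3. All Y665F values lay above all STAT5B values, and the log2 fold change was 3.59 ± 0.44 (SE; adjusted p = 0.000114). The STAT5B values rest on 24, 6 and 6 reads. H19, an imprinted long non-coding RNA that hosts a microRNA, had 30.5, 23.8 and 6.56 CPM with STAT5B and 112, 109 and 99.5 CPM with Y665F. Its Y665F libraries were nearly level, while STAT5B library 3 was far below the other two, and the log2 fold change was 2.62 ± 0.28 (SE; adjusted p = 3.28e-05). With empty vector H19 averaged 0.409 ± 0.143 CPM (SD, n = 3). The exons of H19 (chromosome 7, 142575529 to 142578143, minus strand) overlap those of Mir675 on the same strand and of predicted genes on the opposite strand, and the strand setting of the counting is not given in the sources used here.

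The urokinase system rose at both its receptor and its enzyme. Plaur encodes the urokinase receptor, which holds the protease at the cell surface. Plaur had 2.17, 2.69 and 0.739 CPM with STAT5B and 13.5, 13.3 and 5.04 CPM with Y665F in libraries 1 to 3. Number 3 was the lowest in each group, the groups did not overlap, and the log2 fold change of 2.55 ± 0.19 (SE) had the smallest adjusted p of all genes, 1.05e-07. Plau, urokinase itself, had 1.18, 1.27 and 0.389 CPM with STAT5B and 4.47, 3.90 and 2.04 CPM with Y665F, a log2 fold change of 1.93 ± 0.26 (SE; adjusted p = 0.00036). Plaur lies on chromosome 7, 24462484 to 24475968, plus strand.

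Myh11, a smooth-muscle myosin heavy chain, had 19.7, 24.1 and 3.76 CPM with STAT5B and 67.9, 80.0 and 29.0 CPM with Y665F, again with number 3 lowest and no overlap (log2 fold change 2.07 ± 0.21, SE; adjusted p = 2.54e-05). Nrp2, a receptor for semaphorins and vascular growth factors, had 0.946, 1.21 and 0.525 CPM with STAT5B and 3.87, 6.66 and 3.91 CPM with Y665F, a log2 fold change of 2.46 ± 0.29 (SE; adjusted p = 9.48e-05). Oxtr, the oxytocin receptor, rose from 0.482 ± 0.272 to 3.16 ± 0.532 CPM (SD, n = 3 each; adjusted p = 0.00036). Cdcp1, a transmembrane protein that Src kinases phosphorylate, and Tmem125, a membrane protein, rose by log2 fold changes of 2.08 and 2.08. Nppc, which encodes C-type natriuretic peptide, differed from most in that number 3 was the highest in each group, with 1.48, 1.21 and 1.83 CPM against 3.87, 5.02 and 6.00 CPM (log2 fold change 1.73 ± 0.21, SE).

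Other genes of the 15 encode secreted proteins or a protein modifier. Ctgf, a matrix-associated growth factor, rose from 0.352 ± 0.219 to 2.21 ± 1.30 CPM (SD, n = 3 each). Gpx3, a secreted glutathione peroxidase, rose from 2.78 ± 1.26 to 9.14 ± 2.87 CPM, and C1s1, a protease of the classical complement pathway, from 2.71 ± 0.217 to 11.7 ± 3.37 CPM. Ubd, the ubiquitin-like modifier FAT10, rose from 0.649 ± 0.658 to 3.60 ± 2.14 CPM. Their adjusted p-values were 0.00179, 0.000696, 0.00594 and 0.000234. The exons of C1s1 overlap those of a predicted gene on the opposite strand.

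**Figure D2:**
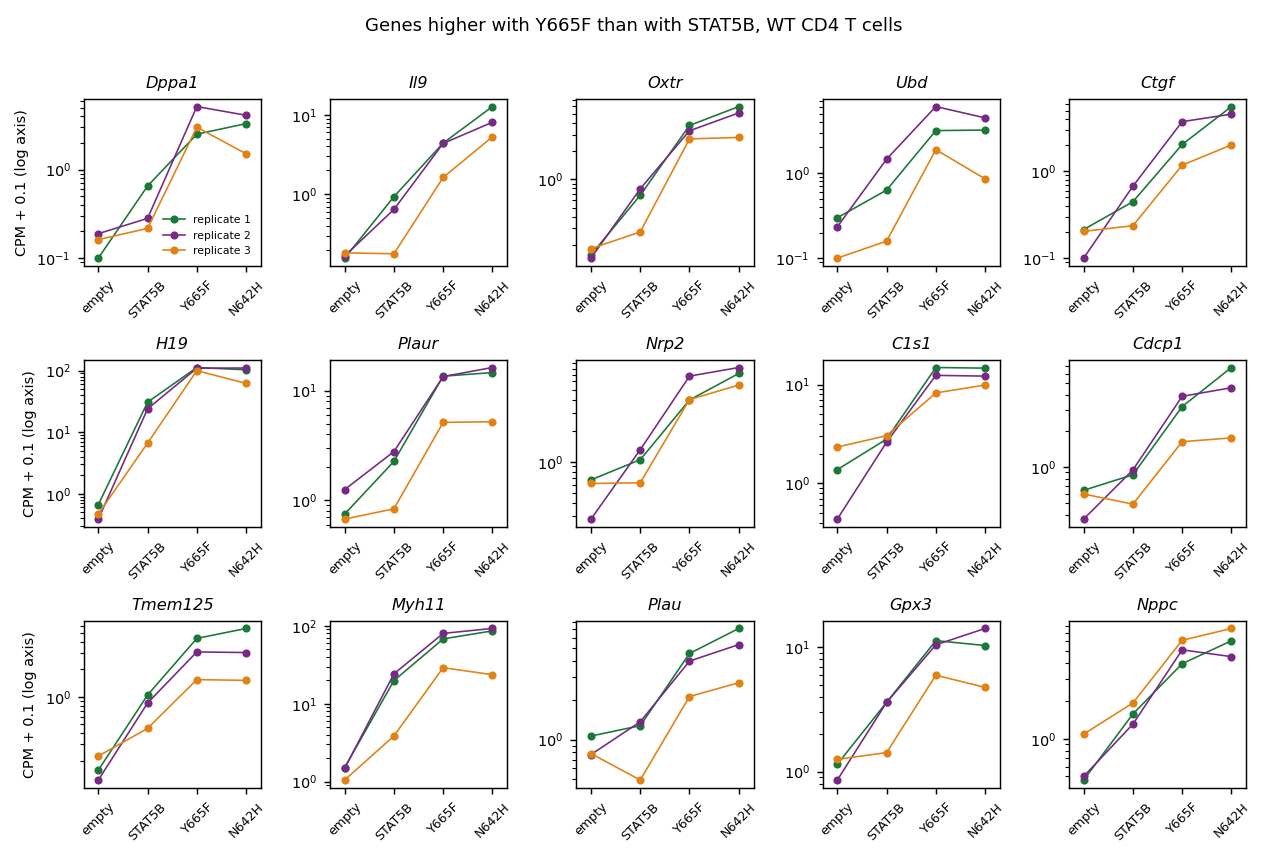
Levels of the 15 named genes that rose most. Each panel gives CPM + 0.1 (log axis) for WT cells with empty vector, STAT5B, Y665F and N642H, with 1 line per replicate number (n = 3). Every line climbs from STAT5B to Y665F, as the choice of genes without overlap requires. Number 3 is the lowest in many panels, as for Plaur (0.739 and 5.04 CPM) and Myh11 (3.76 and 29.0 CPM).

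Set beside the empty vector, the 44 DEGs mostly had higher fitted levels with native STAT5B already, though not all of these rises passed the test. Their median log2 fold change was 1.54 for STAT5B over empty vector, with a range of -0.24 to 5.50, and 3.27 for Y665F over empty vector, with a range of 1.06 to 8.12. For Y665F over STAT5B the median was 1.78 and the range 1.01 to 3.59. These contrasts share libraries, so their values are given side by side only. H19 had the highest folds over empty vector of the 44, with log2 fold changes of 5.50 for STAT5B and 8.12 for Y665F. Among the 15 named genes with the largest folds, STAT5B over empty vector passed adjusted p for H19, Plaur, Myh11, Nppc, Tmem125, Gpx3, Ubd and Oxtr. It did not pass for Dppa1 (0.187), Il9 (0.0561), Ctgf (0.177), Nrp2 (0.311), C1s1 (0.391), Cdcp1 (0.980) or Plau.

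Classical feedback targets of STAT5 did not pass the test of Y665F over native STAT5B in WT cells. Cish, which encodes the inhibitor CIS, had 407.6, 491.0 and 304.0 CPM with STAT5B and 415.4, 391.6 and 417.1 CPM with Y665F, with a log2 fold change of 0.07 ± 0.13 (SE; adjusted p = 0.924) that turned to -0.12 without Y665F library 3. Socs2, a related inhibitor of cytokine signalling, had 381.1, 397.6 and 245.2 CPM with STAT5B and 451.1, 529.5 and 358.0 CPM with Y665F. Socs2 was higher in 3 of 3 pairs, yet its log2 fold change of 0.40 ± 0.10 (SE) had an adjusted p of 0.0959. Il2ra, the alpha chain of the IL-2 receptor, averaged 1871 ± 388 CPM with STAT5B and 2161 ± 353 CPM with Y665F (SD, n = 3 each; log2 fold change 0.22 ± 0.10, SE; adjusted p = 0.490). Over empty vector, Y665F passed in WT cells for Socs2 (0.74, adjusted p = 3.66e-05) and Il2ra (0.38, 0.0167) but not for Cish (0.14, 0.610). In null cells, Y665F over STAT5B passed for Socs2 (1.14, 0.000247) and Il2ra (0.70, 0.0155) but not for Cish (0.62, 0.246). The difference between backgrounds did not pass for any of these genes. None of the 8 feedback inhibitors, 12 STATs and JAKs or 8 receptors of the common gamma-chain family passed. Jak3, the kinase bound to the common gamma chain, had the smallest p of the STATs and JAKs at a log2 fold change of -0.50 ± 0.14 (SE; adjusted p = 0.156). Il7r, the IL-7 receptor chain, had that of the receptors at 0.41 ± 0.13 (SE; adjusted p = 0.224).

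Among secreted cytokines, 3 of 25 tested rose and 1 fell, beside 0.385% and 0.0488% of all genes. Those shares include many weakly expressed genes. Of the 11302 genes that averaged 1 CPM or more, 78 rose and 10 fell, a background that applies to the lists below as well. Lta, which encodes lymphotoxin alpha, had 422.5, 483.4 and 182.0 CPM with STAT5B and 927.2, 827.4 and 402.3 CPM with Y665F. Library 3 with Y665F lay below libraries 1 and 2 with STAT5B, so the groups overlapped, but each pair rose by 0.78 to 1.14 on the log2 scale and the fitted change was 1.01 ± 0.11 (SE; adjusted p = 3.28e-05). Il9, a mast-cell growth factor that Th9 effectors secrete, had 0.831, 0.543 and 0.0778 CPM with STAT5B, from 36, 18 and 4 reads. With Y665F it had 4.31, 4.27 and 1.53 CPM. The log2 fold change of Il9 was 2.88 ± 0.38 (SE; adjusted p = 0.000282). Il3, a growth factor of myeloid progenitors, had 23.7, 25.1 and 4.48 CPM with STAT5B and 51.8, 51.6 and 8.58 CPM with Y665F (log2 fold change 1.04 ± 0.23, SE; adjusted p = 0.0453). Il3 passed in 4 of 13 alternatives with the block, whereas Lta passed in 13 and Il9 in 12. Csf1, the macrophage growth factor, moved the other way, with 18.2, 34.7 and 53.6 CPM against 9.99, 14.3 and 37.9 CPM (log2 fold change -0.85 ± 0.16, SE; adjusted p = 0.00993). The median log2 fold change of the list was 0.26, and that of all genes tested was -0.03. By pair, the list's medians were 0.13, 0.00 and 0.22 for numbers 1 to 3, beside -0.10, 0.00 and 0.04 for all genes tested.

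A pair of neighbouring chemokine genes rose with little spread. Ccl3 had 16.9, 16.0 and 21.2 CPM with STAT5B and 38.7, 42.8 and 38.4 CPM with Y665F, without overlap and without a low library 3 (log2 fold change 1.19 ± 0.16, SE; adjusted p = 0.000413). Its neighbour Ccl4 had 24.5, 21.5 and 34.8 CPM and then 37.6, 41.9 and 48.4 CPM (log2 fold change 0.71 ± 0.15, SE; adjusted p = 0.0284). Ccl3 passed in 13 of 13 alternatives with the block and Ccl4 in 7. They were the 2 of 29 chemokines and chemokine receptors that passed, beside 0.385% of all genes that rose, and the median of the list was 0.03.

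Receptors and transcription factors gave single members that rose past adjusted p, beside 0.385% of all genes. Il18r1, the IL-18 receptor chain, was the 1 of 23 other cytokine receptors that passed, with 50.8, 67.4 and 28.0 CPM against 95.1, 119 and 48.4 CPM (log2 fold change 0.84 ± 0.14, SE; adjusted p = 0.00303). Irf8, an interferon regulatory factor, was the 1 of 28 helper lineage transcription factors that passed. Irf8 had 102.8, 88.0 and 39.0 CPM with STAT5B and 184.1, 131.1 and 88.6 CPM with Y665F (log2 fold change 0.87 ± 0.15, SE; adjusted p = 0.00665). Atf3, a stress-induced factor, was the 1 of 19 AP-1, EGR, NR4A and NFAT genes that passed, at a log2 fold change of 0.72 ± 0.14 (SE; adjusted p = 0.0198). The other members of that list leaned lower, with 15 of 19 fold changes below 0 and a median of -0.18. Of all genes tested, 11055 of 20509 were below 0, with a median of -0.03.

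Of the 10 genes that fell, all were lower in 3 of 3 pairs and all by less than 2-fold. The blocked call itself favours such agreement, and 12.1% of all genes tested were lower in 3 of 3 pairs. Itgb3, the beta3 integrin, had 71.0, 91.0 and 83.1 CPM with STAT5B and 30.8, 43.3 and 63.4 CPM with Y665F. Its groups did not overlap (log2 fold change -0.87 ± 0.17, SE; adjusted p = 0.0218), and the mean with empty vector was higher still, 156.9 ± 42.3 CPM (SD, n = 3). Hrh2, a histamine receptor, had the largest fold of the 10 at -0.94 ± 0.21 (SE; adjusted p = 0.0453), with 2.47, 3.20 and 3.33 CPM against 0.927, 1.54 and 2.27 CPM. Dlk1, an imprinted Notch-family ligand, had 3.46, 6.31 and 33.1 CPM with STAT5B and 2.42, 2.71 and 20.4 CPM with Y665F, so that library 3 stood far above the others in each group. Fyb, an adaptor of T-cell receptor signalling, fell from 214 ± 21.6 to 160 ± 21.5 CPM (SD, n = 3 each; adjusted p = 0.0455). Fam102a, Fam65b, Filip1l, Lbh and Plxnc1, a semaphorin receptor, fell by 0.42 to 0.69 on the log2 scale with adjusted p-values from 0.0335 to 0.0487. Csf1 completes the 10. None of the 10 passed adjusted p in all 13 alternatives with the block: Csf1 did in 10, Itgb3 and Dlk1 in 9, Plxnc1 in 8, Lbh and Fam102a in 7, Filip1l and Fyb in 6, Hrh2 in 5 and Fam65b in 4. None passed without the block.

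**Figure D3:**
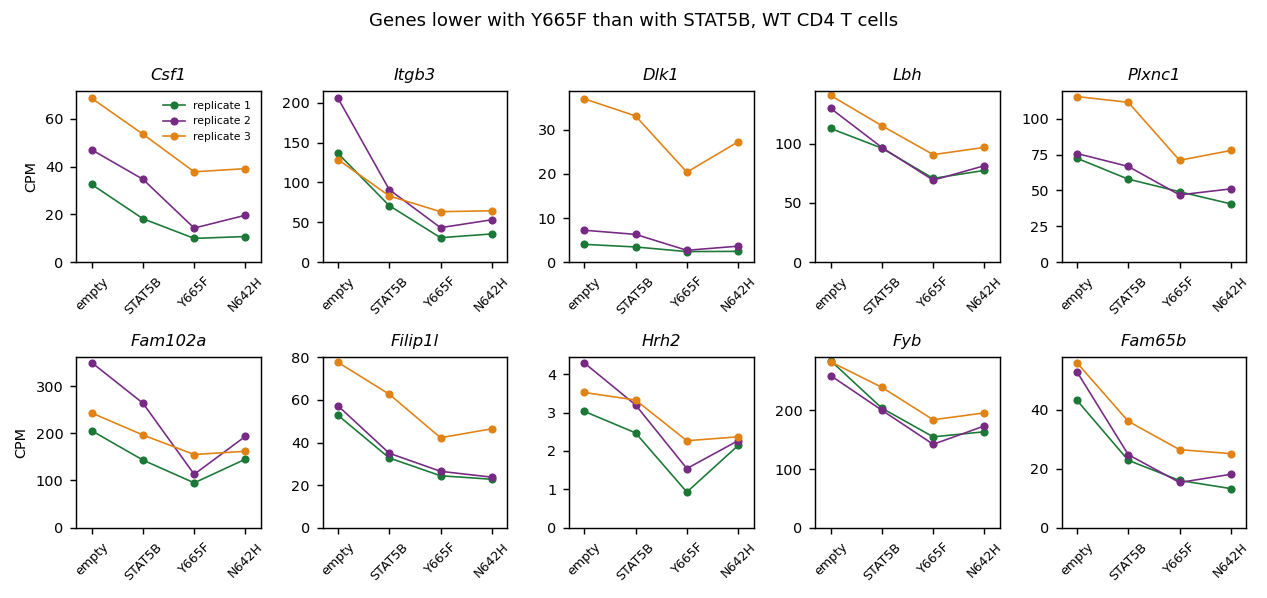
Levels of the 10 genes that were lower with Y665F. Each panel gives CPM for WT cells with empty vector, STAT5B, Y665F and N642H, with 1 line per replicate number (n = 3) and an axis from 0. Every line falls from STAT5B to Y665F, which the blocked call itself favours, and for Itgb3 from 71.0, 91.0 and 83.1 to 30.8, 43.3 and 63.4 CPM.

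Most gene lists held no member past adjusted p. These were the genes of survival and growth (22), regulatory T cells (18), follicular helper cells (14), cytotoxic granules and killer receptors (23), checkpoint and costimulatory receptors (19), TNF superfamily members (23), interferon-stimulated genes (28), guanylate-binding proteins and immunity-related GTPases (16), cell cycle and replication (30), glycolysis and hypoxia (24), amino acid transporters (14), cholesterol and fatty acid synthesis (26) and dual-specificity phosphatases and Sprouty genes (13), with the number tested in parentheses. Their median log2 fold changes ran from -0.20 for interferon-stimulated genes to 0.05 for the cytotoxic list. Foxp3, Tbx21 and Gata3, the master regulators of regulatory, Th1 and Th2 cells, had log2 fold changes of 0.64, 0.95 and -0.45 and adjusted p-values of 0.412, 0.151 and 0.0959. Bcl2 and Mki67, markers of survival and of cycling cells, stood at -0.04 and -0.06. These 5 genes were picked for their known roles, after their values were seen. In those lists the members with the smallest p were Bcl2l11, the death-promoting BIM, at -0.75 (adjusted p = 0.0726), Ikzf2 (0.63, 0.129), Pou2af1 (-0.69, 0.0959), Prf1 (0.79, 0.453), Lag3 (-0.40, 0.168), Tnfsf10 (-0.37, 0.0894), Zbp1 (0.41, 0.147), Gbp8 (-0.77, 0.0514), Cdc20 (0.35, 0.168), Egln3 (0.51, 0.195), Slc7a11 (0.94, 0.523), Srebf2 (-0.22, 0.520) and Spry1 (-0.35, 0.234), each pair giving the log2 fold change and the adjusted p.

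By median fold change, a pair of lists leaned furthest to one side without a member passing. Of 20 genes of naive and quiescent T cells, 13 were lower and 1 higher at an unadjusted p under 0.05, with a median of -0.34. The smallest p was that of Txnip, a brake on glucose uptake, at -0.48 ± 0.11 (SE; adjusted p = 0.0656). Klf2 and Satb1, transcription regulators of resting T cells, had -0.74 and -0.45, while Il7r had 0.41. Apart from Il7r and Txnip, the genes named here were picked after their values were seen. Of 17 genes of the unfolded protein response, 9 were higher and 0 lower at an unadjusted p under 0.05, with a median of 0.24. Trib3 had the smallest p at 0.50 ± 0.13 (SE; adjusted p = 0.0961), and Hspa5 and Xbp1, picked in the same way, stood at 0.28 and 0.31. Over all genes tested, 969 were higher and 1104 lower at that threshold. The lists of interferon-stimulated genes and of STATs and JAKs leaned lower less far. Their medians were -0.20 and -0.15, with 19 of 28 and 10 of 12 fold changes below 0, beside 11055 of all 20509 genes. The naive list's median was below 0 in each pair (-0.36, -0.45 and -0.09), and that of the unfolded protein response above 0 in each (0.09, 0.26 and 0.10).

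**Figure D4:**
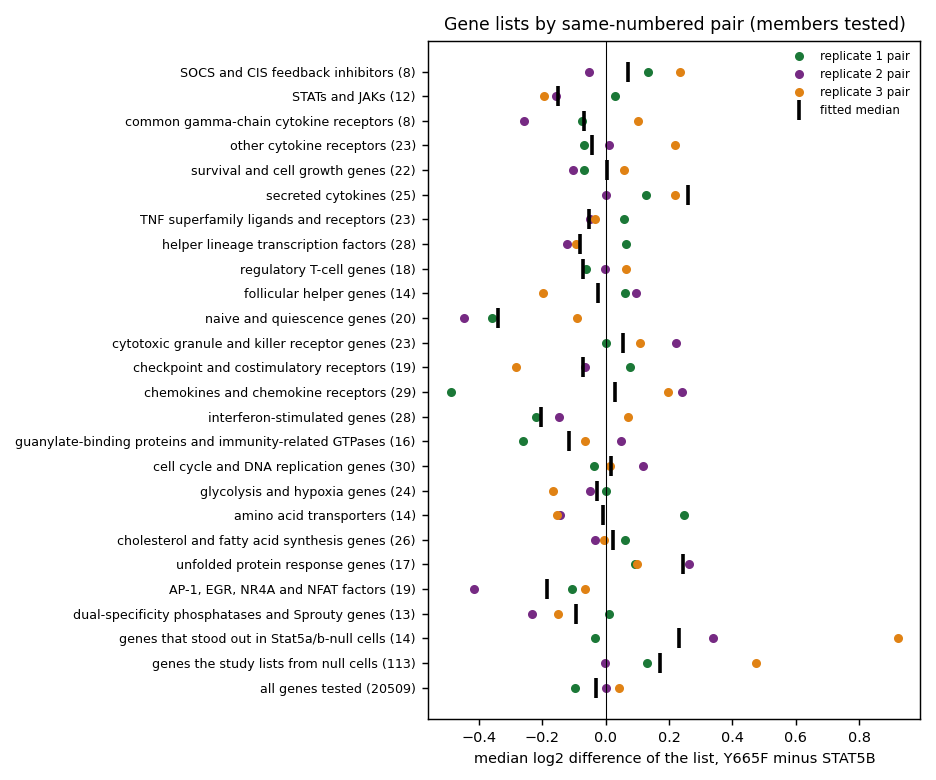
Gene lists within pairs. The x axis is the median log2 difference of the list's members, Y665F minus STAT5B, with 1 point for each same-numbered pair of libraries and a bar for the median of the fitted fold changes. The naive and quiescence list lies left of 0 in all 3 pairs (-0.36, -0.45 and -0.09), while most lists have points on both sides.

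In Stat5a/b-null cells, where 3 libraries of each vector were compared in the same manner, the direction of the changes was nearly the same. Those libraries are separate from the 6 described here. Of the 44 DEGs in WT cells, 43 also had a positive log2 fold change in null cells. The median of the 44 was 1.52 there against 1.78 in WT cells, where a log2 fold change beyond 1 had selected them. Over all genes the median in null cells was -0.0083, and the share of all genes positive there was not counted. In null cells 71 genes were DEGs higher with Y665F (0.323%) and 1 was a DEG lower with it. The overlap of 22 genes was 50% of the WT list and 30.6% of the 72 DEGs in null cells. Of the 71 higher DEGs in null cells, 68 were positive in WT cells and 28 passed the adjusted p there. The median of these 71 was 0.77 in WT cells, although each was beyond 1 in null cells. In WT cells 9454 of all 20509 genes tested were positive. All 10 genes that fell in WT cells were also negative in null cells, with a median of -0.40. Plaur gave 2.53 ± 0.30 (SE) in null cells and 2.55 ± 0.19 in WT cells. Ctgf gave 5.49 ± 0.88 against 2.69 ± 0.42, and H19 4.28 ± 0.58 against 2.62 ± 0.28. In null cells Ctgf averaged only 0.0217 ± 0.0376 CPM with STAT5B, and H19 spread widely with Y665F, at 12.1 ± 14.7 CPM (SD, n = 3 each). The difference between backgrounds did not pass for Ctgf or H19. Ubd was near the floor in null cells, with means of 0.0465 CPM with STAT5B and 0.0754 CPM with Y665F. Ubd and Il18r1, with 0.37 ± 0.99 and -0.20 ± 0.15 in null cells, did not pass there, and the difference between backgrounds did not pass for either (adjusted p = 1 and 0.254).

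The study lists 113 STAT5B-bound genes as raised by Y665F in null cells, there over empty vector and not over native STAT5B. Of these, 15 rose over native STAT5B in WT cells and 0 fell, beside 79 and 10 of all 20509 genes. The median of the list was 0.17, and 81 of its 113 fold changes were positive, beside 9454 of 20509. By pair, its medians were 0.13, -0.0034 and 0.47 for numbers 1 to 3, beside -0.10, 0.00 and 0.04 for all genes tested. The lift was thus absent in pair 2 and largest in pair 3. The list was chosen on libraries of null cells and not on these 6. Its leading members were Plaur, Lta, Ccl3 and Slco3a1, an organic anion transporter with 46.4, 52.7 and 40.9 CPM against 93.0, 80.8 and 64.7 CPM (log2 fold change 0.76 ± 0.11, SE; adjusted p = 0.000468). Of 14 genes chosen for their behaviour in null cells, 5 rose in WT cells, among them H19, Nppc, Rai14 at 0.82 ± 0.11 (SE; adjusted p = 0.000418) and Shroom3, a regulator of cell shape, at 0.89 ± 0.18 (SE; adjusted p = 0.0283). The pair medians of this list spread widely, from -0.03 for number 1 to 0.92 for number 3.

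A test of the difference between backgrounds, over all 30 libraries and 21975 genes, called 1 gene (0.00455%). Stxbp6, which binds proteins of vesicle fusion, had 15.4, 19.9 and 2.35 CPM with STAT5B and 17.3, 27.2 and 3.19 CPM with Y665F in WT libraries 1 to 3. In null libraries it had 2.29, 1.59 and 1.39 CPM with STAT5B and 10.5, 7.42 and 3.51 CPM with Y665F. The WT groups overlapped and the null groups did not. The log2 fold change was 0.35 ± 0.18 (SE) in WT cells and 2.00 ± 0.21 in null cells, a difference of -1.64 ± 0.27 (SE; adjusted p = 0.0287). This call was lost, with 0 genes called, without the replicate block (smallest adjusted p 1), with RLE size factors (0.074) and with the filterByExpr filter (0.12). It was also lost without STAT5B library 1 or 2 or Y665F library 1 of the WT cells, and without library 1 or 2 of either vector in null cells. Without Y665F library 3 of the WT cells, or without that of the null cells, 3 genes were called.

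**Figure D5:**
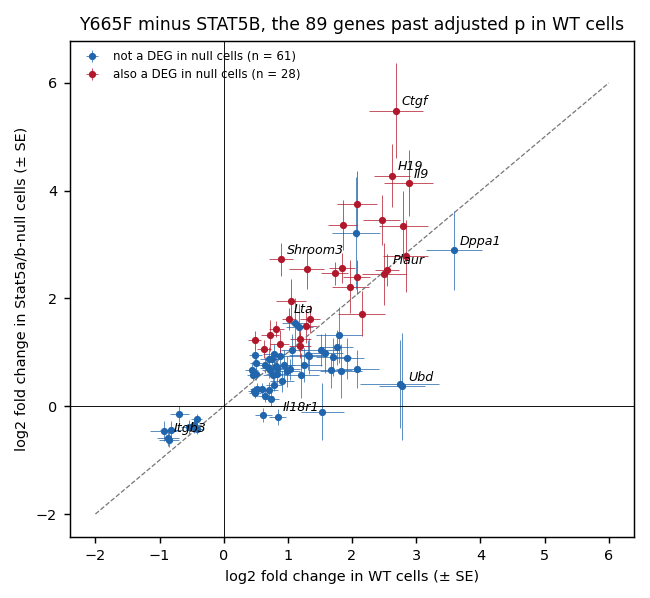
WT and null cells side by side. The x axis is the log2 fold change of Y665F over STAT5B in WT cells and the y axis that in Stat5a/b-null cells, each with its SE, for the 89 genes past adjusted p in WT cells, with the line of equality dashed. The 28 genes that were also DEGs in null cells are in red, and all 10 genes below 0 on the x axis are below 0 on the y axis.

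No difference between Y665F and the activating variant N642H was called in WT cells. With 3 libraries each, 0 of 20509 genes were DEGs (0%) by edgeR, with 1472 genes at an unadjusted p under 0.05, and DESeq2 also called 0. Without N642H library 3 the count was 3, and without Y665F library 3 it was 1, all lower with Y665F. Il9 had the lowest value among the 44 DEGs, with 3.37 ± 1.60 CPM for Y665F and 8.60 ± 3.76 CPM for N642H (SD, n = 3 each), a log2 difference of -1.38 with a 95% interval of -2.01 to -0.74 and an adjusted p of 0.689. For Plaur the difference was -0.14 (95% interval -0.48 to 0.20), for Lta -0.03 (-0.25 to 0.19), for Irf8 -0.26 (-0.57 to 0.06) and for H19 0.31 (-0.23 to 0.85). Over the 44 DEGs the median difference was -0.05, with a range of -1.38 to 0.56. The 44 genes had been called with the same Y665F libraries, so these values only describe them, and the intervals leave room for differences of moderate size.

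The gamma-activated site that STAT5 binds can be written TTCNNNGAA, which reads the same on either strand. It was searched from 250 bases before to 50 bases after the start sites that RefSeq gives for GRCm38.p6. Of the 79 genes that rose, 54 had such a window and 8 of these held the letters (14.8%). Among the DEGs 3 of 29 did (10.3%). Of the 10 that fell, 8 had a window and 0 held them. Among genes that averaged 1 CPM or more, 743 of 8698 with a window did (8.54%), and of all genes with such a window, 2582 of 27025 did (9.55%). Counted per window, since a gene can have several, the shares were 10.4% for the genes that rose, 6.82% for the DEGs and 8.30% for all promoters. A match is a description of letters and not of binding. The promoters of Lta, Il18r1 and Irf8 are shown because each held the motif at 2 places, with the matches in capitals. They lie at chr17:35205302-35205601 on the minus strand, chr1:40465756-40466055 on the plus strand and chr8:120736108-120736407 on the plus strand, and run 5′ to 3′ along the gene.
Lta: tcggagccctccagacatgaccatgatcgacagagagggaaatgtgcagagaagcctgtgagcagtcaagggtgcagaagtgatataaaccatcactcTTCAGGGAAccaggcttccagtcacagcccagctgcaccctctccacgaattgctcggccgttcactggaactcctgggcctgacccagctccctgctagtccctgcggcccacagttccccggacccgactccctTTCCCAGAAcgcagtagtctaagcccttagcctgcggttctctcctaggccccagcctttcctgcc
Il18r1: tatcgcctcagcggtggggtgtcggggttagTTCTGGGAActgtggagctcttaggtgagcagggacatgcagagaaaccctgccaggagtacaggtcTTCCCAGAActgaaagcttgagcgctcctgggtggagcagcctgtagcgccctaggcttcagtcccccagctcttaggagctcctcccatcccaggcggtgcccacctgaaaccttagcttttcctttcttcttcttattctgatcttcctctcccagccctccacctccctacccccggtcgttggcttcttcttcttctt
Irf8: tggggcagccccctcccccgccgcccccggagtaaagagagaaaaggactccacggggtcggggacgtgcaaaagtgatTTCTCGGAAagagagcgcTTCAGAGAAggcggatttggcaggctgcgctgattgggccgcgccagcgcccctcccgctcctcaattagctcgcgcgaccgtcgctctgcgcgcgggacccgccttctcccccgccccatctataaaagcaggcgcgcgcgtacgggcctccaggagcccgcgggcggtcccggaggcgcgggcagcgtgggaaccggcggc

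The matches start at bases -152 and -16 from the start site of Lta, -219 and -152 from that of Il18r1 and -171 and -153 from that of Irf8. All of these genes rose in 3 of 3 pairs, which the blocked call favours, by log2 fold changes of 1.01, 0.84 and 0.87. Emp1, a membrane protein, also held 2 matches and had a log2 fold change of 0.70 (adjusted p = 0.0279). Pkib, an inhibitor of protein kinase A, and Nedd4, a ubiquitin ligase, held 1 match each and were DEGs at 1.84 and 1.18. Emp1, Pkib and Nedd4 are named for their matches, after their values were seen. The window of Plaur held no match.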

How the data were processed

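Total RNA from sorted CD4+ T cells was sequenced by the authors, who trimmed reads with Trimmomatic 0.36, aligned them to mm10 with STAR and counted them per gene with HTSeq 0.9.1. The values used are the deposited raw counts for 24421 genes. The 5 closing lines of each file, which name no gene, were left out. The authors' RUVSeq step was not repeated. The HTSeq strand setting is not given in the sources used here.

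Genes with at least 10 reads over the 15 WT libraries were fitted with edgeR 4.0.16 (limma 3.58.1, R 4.3.3) by the quasi-likelihood method, with TMM scaling and terms for group and replicate number, and p-values were adjusted by Benjamini-Hochberg over 20509 genes. The contrast with null cells used all 30 CD4 libraries and 21975 genes. DESeq2 1.42.0, other scalings and filters, fits without the block and fits leaving out each library were alternatives. Fits of replicates 1 and 2 only, of scaling to the library total and of DESeq2 without the replicate term were chosen after seeing the data. The scripts were tested on simulated data.

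Named genes were up to 15 DEGs per direction with the largest fold, a mean of at least 1 CPM and no overlap between groups. Where a direction had fewer than 10, the genes past adjusted p with the smallest p were used. From each of 25 lists the members past adjusted p (up to 4), or else the one with the smallest p, were added, and Stat5b, Stat5a, Socs2, Cish, Lta, Irf8 and Il2ra always. Genes called in the contrasts with N642H and with null cells were added as well, and predicted genes were not named. The members and lists were chosen with earlier results of these data known. Gene positions are from GENCODE M21 on GRCm38. The labels do not say what the replicate number marks. Over all 5 WT groups, 29 of 30 same-numbered pairs had correlated deviations above 0.1, with a median of 0.65 and a lowest value of 0.0079.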

Additional observations from a re-analysis of the deposited data

Results flagged for a closer look

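Stxbp6 was marked for a closer look because the effect of Y665F over STAT5B differed between WT and Stat5a/b-null cells by a test of the difference itself. The difference, WT minus null, was -1.64 on the log2 scale (adjusted p = 0.0287 by edgeR's quasi-likelihood test). The call was lost without the replicate block, with RLE size factors, with the filterByExpr filter and when some single libraries were left out. In WT cells with empty vector Stxbp6 already had 15.4, 15.2 and 1.75 CPM in libraries 1 to 3, while in null cells with empty vector it had 0.165, 0.0869 and 0.173 CPM. The part of that difference in starting level was not tested.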

How the results depend on the processing

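The replicate block decided most calls. Without the replicate block, edgeR gave 0 DEGs and 0 genes past adjusted p for Y665F against STAT5B, and 0 genes for the difference between backgrounds. DESeq2 without the block gave 12 DEGs and 16 genes past adjusted p. All 35 named genes past adjusted p lost the call in edgeR without the block, while 19 of them kept it in all 13 alternatives with the block. Against 44 DEGs, the fit of the 6 libraries alone gave 97, no filter on low counts 93, and replicates 1 and 2 only 104. Against 89 genes past adjusted p, these gave 245, 413 and 684, DESeq2 with the replicate term 234 and the filterByExpr filter 58. Leaving out single libraries gave 29 to 94 DEGs and 42 to 841 genes past adjusted p. Against N642H, no filter gave 8 genes, and leaving out single libraries 0 to 3. For the difference between backgrounds, RLE size factors and the filterByExpr filter gave 0, and leaving out single libraries 0 to 3. Cish changed sign, to -0.13 with replicates 1 and 2 only and -0.12 without Y665F replicate 3, and its values without single libraries ran up to 0.24. The cause of these shifts was not tested. The Stat5b difference stayed between -0.37 and -0.15 when single libraries were left out, and its sign-flip permutation with the replicate block gave an exact p of 0.25, the smallest that 3 pairs can give. Depth limits the lowest genes most, as for Dppa1, with 6 reads in each of STAT5B libraries 2 and 3.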

Other observations

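Imprinted genes appeared on both sides of the comparison. Igf2, a growth factor next to H19 on chromosome 7, had 0.231, 0.211 and 0.0584 CPM with STAT5B and 1.13, 0.522 and 1.87 CPM with Y665F (log2 fold change 2.74 ± 0.61, SE; adjusted p = 0.0466 by edgeR). The STAT5B values of Igf2 were near the floor. Its exons overlap those of a predicted gene on the same strand and of Igf2os on the opposite strand. Mest had 0.554, 1.21 and 0.642 CPM with STAT5B and 1.89, 1.86 and 1.90 CPM with Y665F (log2 fold change 1.30 ± 0.29, SE). The exons of Mest overlap those of Copg2 on the opposite strand. H19 was also higher, while Dlk1 was lower. These genes were picked after their values were seen, and no test was made of imprinted genes as a group.

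Receptors for peptides and lipids coupled to G proteins were among the genes that rose besides Oxtr. Npsr1, the neuropeptide S receptor, had 2.45, 3.44 and 0.447 CPM with STAT5B and 7.86, 10.5 and 2.63 CPM with Y665F (log2 fold change 1.85 ± 0.23, SE; adjusted p = 0.000116 by edgeR). Cysltr1, a leukotriene receptor, rose by 1.28 ± 0.18 and Avpr1a, a vasopressin receptor, by 0.65 ± 0.14 (log2 fold change, SE). The peptide gene Grp rose by 1.80 ± 0.36. The histamine receptor Hrh2 fell. These, too, were picked after their values were seen, with no test of the group.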
